A study of Mus musculus with 8 samples.

Results

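Transcripts of 40 nuclear genes that encode complex II (succinate dehydrogenase), complex III (the cytochrome bc1 complex) and ATP synthase, with their assembly factors, were examined in brown adipose tissue (BAT), the thermogenic fat depot. The members were chosen by gene symbol among the 31053 gene identifiers of the count table, 8 for complex II, 15 for complex III and 17 for ATP synthase, and the c-subunit genes of ATP synthase were left out of the set. Libraries came from C57BL6/J mice labelled 8-weeks, 4 of genotype WT and 4 of genotype Cd36KO, with no treatment named in the labels, and the comparison asked how the genotype altered the BAT transcriptome. The labels give no allele. The study made a germline knockout and a myeloid deletion (CD36 flox/flox with Csf1r-Cre, a driver active in cells that express the macrophage growth factor receptor) and ascribes its BAT profile to the latter. It describes that profile as coming from separate mice, as many as the libraries here and of the age in the labels, although its methods give a later age at sacrifice for the myeloid line. The column of 1 Cd36KO library has no number in its name, and it is written as the unnumbered Cd36KO library. The labels themselves tie no library to an animal.

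Complex II oxidises succinate in the citric acid cycle and passes the electrons to ubiquinone, complex III moves them from ubiquinol to cytochrome c while pumping protons, and ATP synthase uses the proton gradient to make ATP. Brown adipocytes are packed with mitochondria in which UCP1 lets protons return without ATP synthesis, and brown fat is known for a large respiratory chain and comparatively little ATP synthase. Complex II is encoded by nuclear genes alone, whereas complex III and ATP synthase also hold subunits made from the mitochondrial genome.

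Each library held between 2679785 and 4097953 counts, and a normalized count is the count divided by the library's size factor. The labels name the cell type as Stromal Vascular Fraction, yet adipocyte markers (Adipoq, Plin1, Fabp4, Pparg and Lipe) summed to between 15608 and 36170 normalized counts in every library, so the libraries are called BAT here, the tissue given by the labels. Cd36 itself was at 2918 ± 454 normalized counts (SD, n = 4) in the WT group and at 2087 ± 216 (SD, n = 4) in the Cd36KO group. Every Cd36KO library was below every WT library, but the transcript was still abundant and the log2 fold change of -0.48 did not pass the test (SE 0.16, DESeq2 adjusted p = 0.0602). The methods describe male mice, whereas Xist held between 772 and 1588 counts in all 8 libraries and Kdm5d, Uty, Ddx3y and Eif2s3y held 0 in all but WT replicate 1, where Ddx3y had 3.

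Genes of the 3 enzymes held a larger share of the nuclear transcript counts in Cd36KO than in WT BAT. The share was 2.64%, 2.99%, 2.71% and 3.31% in WT replicates 1 to 4 and 4.16%, 3.63%, 4.01% and 4.11% in the unnumbered library and replicates 2 to 4 of Cd36KO, and the groups did not overlap. The genes that rose were Sdhb of complex II, Uqcrc1, Uqcrh, Uqcr10, Cyc1 and Uqcc3 of complex III, and Atp5j2, Atp5k, Atp5l and Atp5o of ATP synthase, by between 1.43-fold (Atp5j2) and 1.74-fold (Uqcr10). These 10 of 40 (25.0%) had a DESeq2 adjusted p under 0.05, against 1.42% of all 9619 genes tested that were called higher. No member was called lower, against 1.53% of all genes, and 1 (Atp5j) was lower at an unadjusted p under 0.05 by DESeq2, edgeR and limma alike. Of the 40 log2 fold changes, 32 were above 0 (49.2% over all genes), and their median was 0.26 against -0.01 over all genes. All 4 Cd36KO libraries were above all 4 WT libraries for 12 members (4.83% of all genes), the 10 that were called together with Ttc19 and Atp5d, and none lay wholly below (3.93% of all genes).

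The quasi-likelihood test of edgeR called 0 of the 40 members at an adjusted p under 0.05, where it called 0.0408% of 9793 genes higher, although 17 members were higher at an unadjusted p (7.23% of all genes), as 18 were with DESeq2 (7.69%). DESeq2 called 7 members after a filter of 10 counts in 4 libraries (1.32% of all genes higher) and 5 without independent filtering (0.42%). With a library left out, the number of members called by DESeq2 moved together with the share of all genes called higher. It was 0 without the unnumbered Cd36KO library (0.19% of all genes) or without WT replicate 2 (0.265%), 2 without WT replicate 3 (0.355%) or Cd36KO replicate 4 (0.515%) and 3 without Cd36KO replicate 3 (0.874%). It was 4 without WT replicate 1 (1.06%), 9 without Cd36KO replicate 2 (2.47%) and 17 without WT replicate 4 (5.28%), and 37 of the 40 members had an adjusted p without WT replicate 4 or without Cd36KO replicate 2 or 3. Meanwhile the median log2 fold change of the 40 stayed between 0.27 and 0.38.

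**Figure D1:**
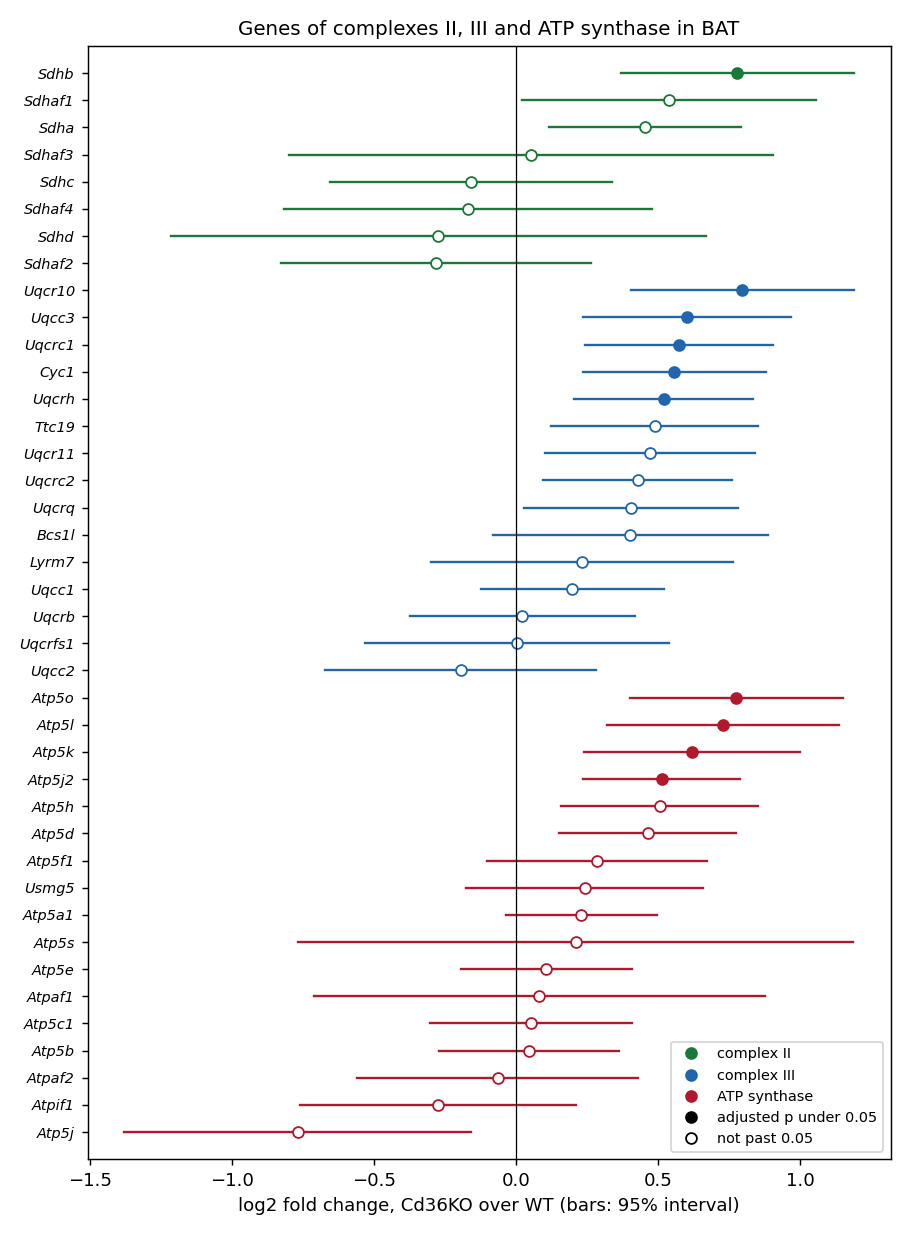
Log2 fold change (Cd36KO over WT) of each of the 40 genes on the x axis, with bars of 1.96 SE on either side, genes on the y axis ordered by size within each enzyme; filled points have a DESeq2 adjusted p under 0.05. The filled points lie between 0.51 and 0.80, and points of complex II spread on both sides of 0 whereas 14 of 15 for complex III lie above it.

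Calls and medians were also read for each of the 3 enzymes. In complex III 5 of 15 genes (33.3%) were higher, in ATP synthase 4 of 17 (23.5%) and in complex II 1 of 8 (12.5%). The share was 1.42% over all genes and 10.8% over genes with a mean normalized count of 1000 or more. Median log2 fold changes were 0.43, 0.23 and -0.05, with 14, 14 and 4 genes above 0. Over the structural subunits of all 3 enzymes, 9 of 26 (34.6%) were higher with a median of 0.44. Over assembly factors, the inhibitor and coupling factor B, 1 of 14 (7.14%) was higher with a median of 0.14. These are descriptions, and the difference between the enzymes or between subunits and factors was not tested. In the numbered libraries 2 to 4 of both groups the medians lay closer together. They were 0.28 for complex III, 0.24 for ATP synthase and 0.14 for complex II. With a muscle marker score as a covariate, complex II and ATP synthase were at 0.27 and 0.26 and complex III stood apart at 0.57. As shares of nuclear counts, complex II held between 0.279% and 0.430% in WT and between 0.470% and 0.595% in Cd36KO, complex III between 0.911% and 1.20% against 1.27% to 1.54%, and ATP synthase between 1.42% and 1.68% against 1.89% to 2.11%, with no overlap for any of the 3. In summed normalized counts, WT replicate 4 lay above Cd36KO replicate 2 for complex II (9959.8 against 9899.6) and complex III (27936 against 26759), and only ATP synthase remained without overlap.

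Promoter sequences are shown for the 4 genes, of 9 searched among those that rose, that carry a match before the start site to a binding motif of NRF1, the ETS family (which includes GABPA) or the ERR family, regulators known for control of nuclear respiratory genes. The 250 bases before the RefSeq start site (GRCm38.p6) are printed from 5′ to 3′ in the direction of transcription, with the matches in capitals, for Atp5k at chr5:108434400-108434649, Atp5l at chr9:44920743-44920992, Uqcrh at chr4:116075071-116075320 and Uqcc3 at chr19:8880934-8881183, all on the minus strand.
Atp5k: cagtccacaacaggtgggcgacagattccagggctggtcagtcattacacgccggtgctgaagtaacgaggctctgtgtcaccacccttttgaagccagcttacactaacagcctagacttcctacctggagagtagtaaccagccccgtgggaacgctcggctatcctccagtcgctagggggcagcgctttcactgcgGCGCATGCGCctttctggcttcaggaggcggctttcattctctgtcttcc
Atp5l: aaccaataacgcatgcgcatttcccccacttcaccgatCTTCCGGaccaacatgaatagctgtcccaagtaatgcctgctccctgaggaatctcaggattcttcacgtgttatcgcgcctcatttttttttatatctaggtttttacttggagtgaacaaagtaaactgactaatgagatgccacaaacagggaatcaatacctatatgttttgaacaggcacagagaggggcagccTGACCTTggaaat
Uqcrh: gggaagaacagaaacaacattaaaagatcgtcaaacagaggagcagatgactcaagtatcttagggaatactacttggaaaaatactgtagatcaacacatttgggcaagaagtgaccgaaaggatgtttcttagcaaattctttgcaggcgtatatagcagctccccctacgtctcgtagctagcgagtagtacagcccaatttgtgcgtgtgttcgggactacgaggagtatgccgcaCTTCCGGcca
Uqcc3: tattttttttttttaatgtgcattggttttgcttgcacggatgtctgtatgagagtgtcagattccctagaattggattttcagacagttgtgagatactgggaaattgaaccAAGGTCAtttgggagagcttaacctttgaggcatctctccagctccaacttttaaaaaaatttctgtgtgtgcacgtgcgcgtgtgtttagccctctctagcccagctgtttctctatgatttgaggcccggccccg
The capitals mark NRF1 in Atp5k, beginning 50 bases before the start, ETS (212 bases before it) and ERR (13 bases before it) in Atp5l, ETS in Uqcrh (10 bases before it) and ERR in Uqcc3 (137 bases before it). Such matches were not confined to genes that rose. Among searched members that were not called, Sdhd, Sdhaf2, Sdhaf3, Uqcr11, Uqcc2, Bcs1l, Atp5c1, Atp5e, Atp5h, Atp5j and Atpif1 also carry one before the start.

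Motifs were searched on both strands in windows of 250 bases before and 50 after each start, with 35 windows for 31 of the 40 members, 9 of the 10 that rose (Cyc1 was not searched), and 32851 windows in all. The NRF1 motif, its core with C or T allowed after the only A, was in 7 of 35 member windows (Sdhd, Sdhaf4, Uqcc2, Atp5c1 and, among the genes that rose, Uqcrc1, Atp5k and Atp5o) and in 2.27% of all windows, and the ETS motif CCGGAAG in 37.1% of member windows (13 members) and 8.86% of all. The ERR motif AAGGTCA was in 17.1% and 4.72%, the YY1 motif AAGATGGC in 11.4% and 2.75%, the CRE TGACGTCA in 5.71% and 1.79%, and the GC box GGGCGG in 45.7% and 35.7%. Of the 13 members with an ETS match, 4 rose (Sdhb, Uqcrh, Atp5k and Atp5l), and the window of Uqcr10, the gene with the largest rise, held none of the 6 motifs. Apart from the GC box, whose positions were not recorded, no matches in these windows shared a base, and a match is a description of letters, not a site.

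In complex II, the iron-sulfur subunit rose while the membrane anchors did not pass the test. Sdhb, which carries the iron-sulfur clusters, had 3176, 4577, 4788 and 5994 normalized counts in WT replicates 1 to 4 and 9933, 6240.3, 7697 and 7942 in the unnumbered library and replicates 2 to 4 of Cd36KO, an order kept for all genes that follow. The lowest Cd36KO library lay just above the highest WT library, and the log2 fold change was 0.78 (SE 0.21, DESeq2 adjusted p = 0.0161). Sdha, the flavoprotein with the succinate-binding site, had 1851, 2140.4, 2110.0 and 2876 in WT and 3664, 2831, 2882 and 2907 in Cd36KO. Its WT replicate 4 lay among the Cd36KO libraries, and the log2 fold change of 0.45 (SE 0.17) did not pass the test (DESeq2 adjusted p = 0.138).

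The anchors Sdhc and Sdhd, which hold the complex in the inner membrane and form the ubiquinone site, had log2 fold changes of -0.16 (SE 0.25) and -0.27 (SE 0.48), with adjusted p-values of 0.829 and 0.849. Normalized counts of Sdhc were between 329 and 608 in WT and between 235 and 489 in Cd36KO, and those of Sdhd, a thinly counted gene, between 10.6 and 68.6 in WT and between 22.3 and 40.4 in Cd36KO. For both anchors the unnumbered library was the lowest of the Cd36KO group, although the same library was the highest for Sdha and Sdhb, and without it the log2 fold change of Sdhc was 0.04. Among the assembly factors, Sdhaf1, which helps insert iron-sulfur clusters into SDHB, had a log2 fold change of 0.54 (SE 0.26, adjusted p = 0.296). Sdhaf2, needed to attach flavin to SDHA, had the largest fall of the complex, -0.28 (SE 0.28, adjusted p = 0.696), with 75.8, 63.7, 52.9 and 109 in WT and 64.6, 65.6, 49.1 and 68.6 in Cd36KO, ranges that overlapped in part, with WT replicates 1 and 4 above every Cd36KO library. Sdhaf3 and Sdhaf4 stood at 0.05 and -0.17. None of the 4 factors passed the test in either tool, and Sdhaf1 alone was higher at an unadjusted p in both.

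**Figure D2:**
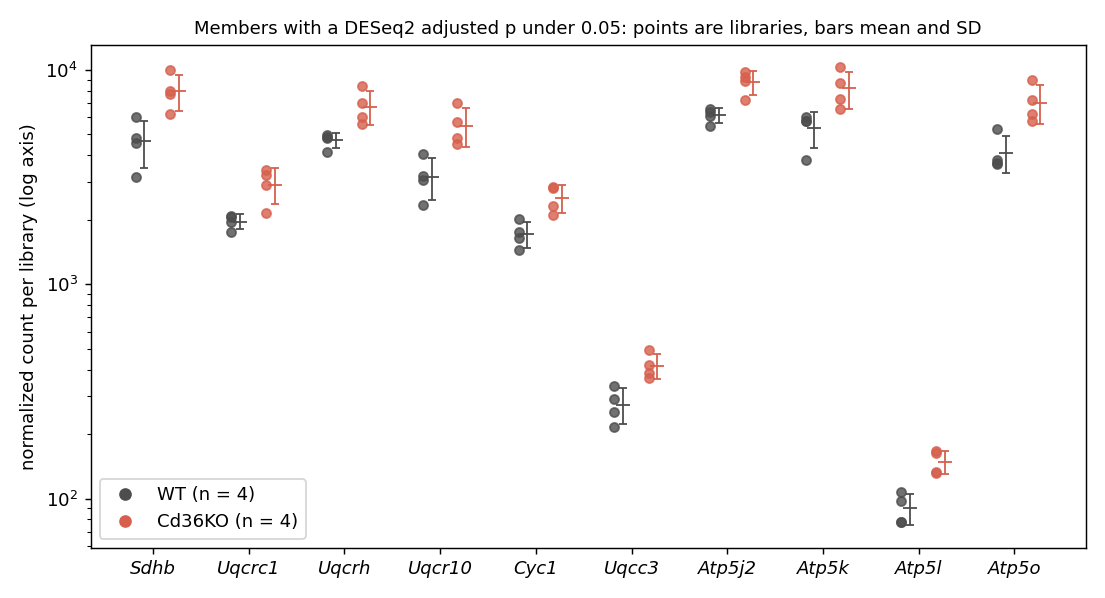
Normalized count per library (y axis, log scale) of the 10 genes with a DESeq2 adjusted p under 0.05 (x axis), in 4 WT (grey) and 4 Cd36KO (red) libraries, with mean and SD beside the points. For each gene all red points lie above all grey points, and the gap is narrow where WT replicate 4 is high, as in Sdhb (5994 against 6240.3).

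In complex III, 4 of 9 subunits and 1 of 6 assembly factors rose. Uqcr10, a small subunit of the membrane part, had the largest rise of all 40 genes, from 2349, 3192, 3065 and 4045 in WT to 7001, 4507, 4784 and 5679.7 in Cd36KO. The unnumbered library was far above the rest, and the log2 fold change was 0.80 (SE 0.20, DESeq2 adjusted p = 0.00883). Uqcrh, the hinge protein next to cytochrome c1, had 4115, 4881, 4970.5 and 4830.1 in WT and 8378, 5582, 6016 and 6976 in Cd36KO. Its WT libraries were close together apart from a lower replicate 1, and it rose by 0.52 on the log2 scale (SE 0.16, DESeq2 adjusted p = 0.0446).

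Cyc1, the cytochrome c1 that hands electrons to cytochrome c, had 1437, 1753, 1634 and 2019 in WT and 2843, 2092, 2325 and 2808 in Cd36KO, with replicate 2 of Cd36KO close above WT replicate 4. It rose by 0.56 (SE 0.16, DESeq2 adjusted p = 0.0331). Uqcrc1, a core protein on the matrix side, had 2063, 2088, 1745 and 1947 in WT and 3219, 2149.5, 2886 and 3412 in Cd36KO. Here the WT libraries varied little and replicate 2 was the low Cd36KO library, with a log2 fold change of 0.57 (SE 0.17, DESeq2 adjusted p = 0.0326). The partner core protein Uqcrc2 stood at 0.43 (SE 0.17, adjusted p = 0.158).

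The Rieske iron-sulfur protein Uqcrfs1, inserted late in assembly, gave no difference between the means. It had 545, 646, 479.9 and 1287 in WT and 665, 699.6, 775 and 825 in Cd36KO, a log2 fold change of 0.00 (SE 0.27, adjusted p = 0.997). The WT mean rested on replicate 4, which was above every other library, and without it the log2 fold change was 0.41. Uqcrb, a subunit near the ubiquinone site, had the same shape, with 2017 in WT replicate 4, no more than 1229.9 in the other WT libraries and between 1304 and 1619.9 in Cd36KO, and its log2 fold change was 0.02. The small subunits Uqcrq and Uqcr11 stood at 0.40 and 0.47, with adjusted p-values of 0.271 and 0.164.

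Of the complex III assembly factors, Uqcc3, which acts with cytochrome b early in assembly, rose by 0.60 (SE 0.19, DESeq2 adjusted p = 0.047), with 215, 292, 254 and 336 in WT and 495, 385, 366 and 419 in Cd36KO, so that the groups were separate by a small margin. Ttc19, which helps clear fragments of the Rieske protein, was also separate, between 133 and 141 in WT and between 163 and 228 in Cd36KO, but its log2 fold change of 0.49 had an adjusted p of 0.137. The gene overlaps Ncor1 in the annotation, and the strand setting of the counting is not given. Uqcc2, a partner in cytochrome b synthesis, had the largest fall of the complex, -0.20 (SE 0.24, adjusted p = 0.775), with 158, 125, 119 and 209.7 in WT and 121, 169, 104 and 139.6 in Cd36KO, and the groups overlapped. Uqcc1, Lyrm7 and Bcs1l, the last 2 of which handle the Rieske protein, stood at 0.20, 0.23 and 0.40 and did not pass the test.

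In ATP synthase, 3 of 4 membrane subunits and 1 of 4 peripheral stalk subunits rose, and 0 of 5 subunits of the catalytic F1 head and central stalk (1 at an unadjusted p, by DESeq2 and by edgeR). Atp5b, the beta subunit that makes ATP, had 4615, 3837, 3628 and 5219.8 in WT and 3998, 4396, 5191 and 4252 in Cd36KO. Its groups were interleaved and the log2 fold change was 0.04 (SE 0.16, adjusted p = 0.938). Atp5a1, the alpha subunit beside it, had 3789, 3559, 3137 and 4336 in WT and 4418, 4407, 4324 and 4235 in Cd36KO. The Cd36KO libraries were tightly grouped near the highest WT library, and the log2 fold change of 0.23 (SE 0.14) did not pass the test (adjusted p = 0.415). Of the central stalk, Atp5c1 stood at 0.05 and Atp5e at 0.11, whereas Atp5d stood at 0.46 with all Cd36KO libraries above all WT libraries and an adjusted p of 0.0809.

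The peripheral stalk, which holds the head still against the rotor, held both the largest rise and the largest fall of the enzyme. Atp5o, the OSCP subunit at the top of the stalk, had 3645, 3659.9, 3809.6 and 5319 in WT and 8996, 5739, 7215 and 6188 in Cd36KO. All but WT replicate 4 were well apart, and Atp5o rose by 0.78 (SE 0.19), with the lowest adjusted p of the 40 genes (DESeq2 adjusted p = 0.00675). Atp5j, coupling factor 6, had 130.0, 127, 71.7 and 194 in WT and 45.7, 86.3, 89 and 85.4 in Cd36KO. WT replicate 3 lay within the Cd36KO range and the unnumbered library was lowest, and the log2 fold change of -0.77 (SE 0.31) did not pass the test (adjusted p = 0.17). The annotation places it across part of Gabpa, which held 331 counts in all. The stalk subunits Atp5h and Atp5f1 stood at 0.50 (adjusted p = 0.0917) and 0.29 (adjusted p = 0.52).

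Among the membrane subunits, Atp5k and Atp5l are the e and g subunits through which ATP synthase forms dimers that bend the inner membrane into cristae. Atp5k had 3809, 5746, 6002 and 5784 in WT and 10247, 6561, 7337 and 8632 in Cd36KO, with the unnumbered library highest and WT replicate 1 lowest, and rose by 0.62 (SE 0.19, DESeq2 adjusted p = 0.0497). Atp5l had 77.6, 78.1, 97.6 and 107 in WT and 167, 132, 163 and 133 in Cd36KO, clear of each other at a low count, and rose by 0.73 (SE 0.21, DESeq2 adjusted p = 0.0271). Atp5l has 9 near-identical copies elsewhere in the genome (at least 95% identity over at least 75 bases and 50% of the transcript), whereas Atp5o and Atp5k have 1 each, and Uqcrb and Atp5h 3 each. The 1 copy with a row of its own (a copy of Atp5l) held 0 counts, and reads that fit several copies may have been lost or shared.

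Atp5j2, the f subunit, had 5494, 6571, 6113 and 6356 in WT and 8821, 7193, 9212 and 9794 in Cd36KO, and rose by 0.51 with the smallest SE of the genes that rose (0.14, DESeq2 adjusted p = 0.02). Usmg5, a small protein (DAPIT) of the dimer, stood at 0.24 (adjusted p = 0.644). The inhibitor Atpif1, which stops the enzyme from hydrolysing ATP when the gradient fails, had 104, 98.5, 112 and 67.3 in WT and 84.7, 99, 65.5 and 67.1 in Cd36KO, with overlapping groups and a log2 fold change of -0.27 (SE 0.25, adjusted p = 0.654). Atpaf1 and Atpaf2, chaperones of the beta and alpha subunits, stood at 0.08 and -0.06, and Atp5s, coupling factor B, at 0.21 with between 6.68 and 25.6 normalized counts in any library.

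**Figure D3:**
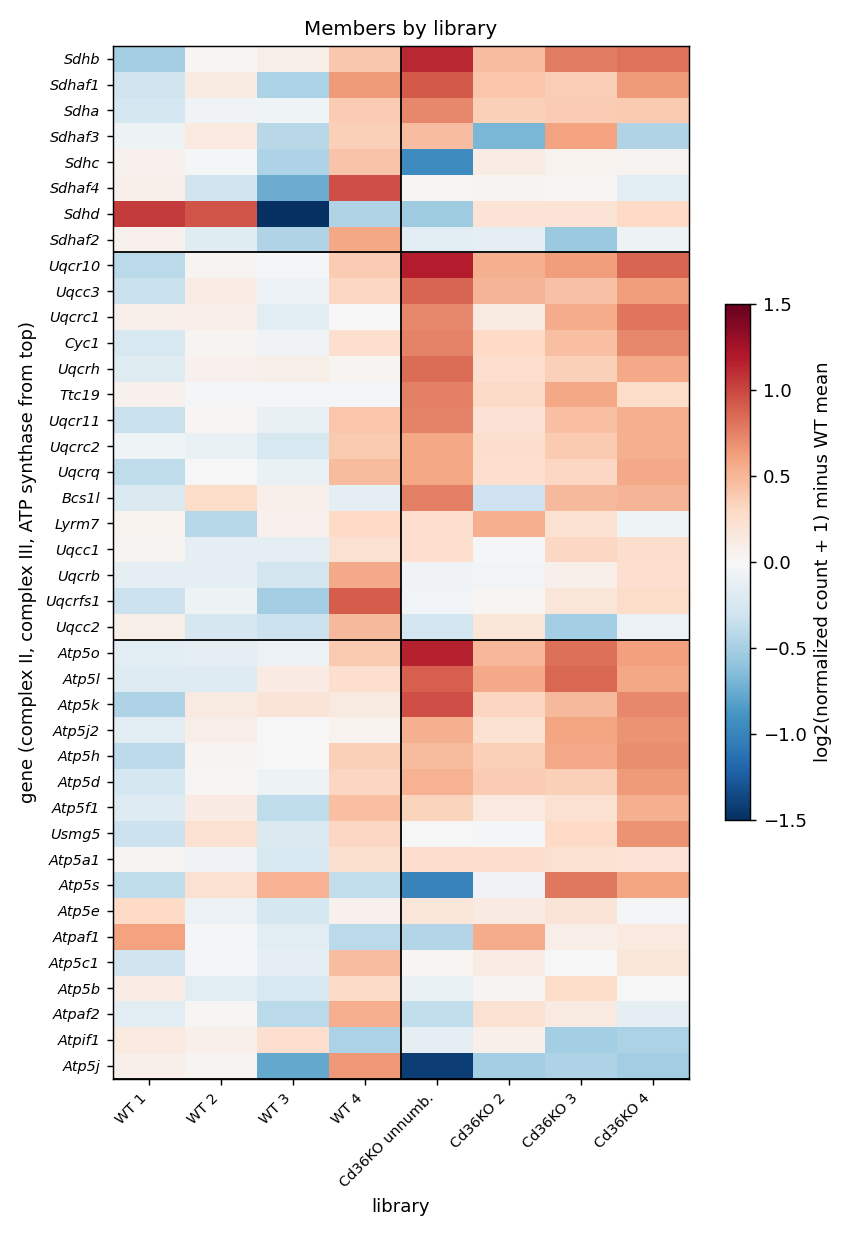
Each cell gives log2(normalized count + 1) of a gene (y axis, grouped by enzyme) in a library (x axis) minus the mean of the 4 WT libraries, with colours capped at 1.5 either way. Red cells fill the Cd36KO columns for most of complex III, WT replicate 4 is the reddest WT column, and the unnumbered Cd36KO column holds the darkest red (Uqcr10) as well as the darkest blue of that group (Atp5j).

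Libraries differed within groups in a way that recurred across the genes. WT replicate 4 was the highest WT library for 29 of the 40 genes, and WT replicates 1 and 3 were each the lowest for 18. In Cd36KO, the unnumbered library was highest for 16 genes, among them 8 of the 10 that rose, and lowest for 9. Replicate 2 was the lowest Cd36KO library for 19 genes, among them 9 of the 10. Summed over the 40 genes, normalized counts were 55246, 63144, 59941 and 76760 in WT and 99652, 76381, 86199 and 91906 in Cd36KO, so on this scale WT replicate 4 lay just above Cd36KO replicate 2. The coefficient of variation was larger in WT than in Cd36KO for 28 genes, with medians of 21.4% and 15.7%.

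The genes that rose were mostly the abundant ones. All 18 members with a mean normalized count of 1000 or more had a log2 fold change above 0, with 8 called higher and a median of 0.49, where 10.8% of the 352 genes of that class were called higher and their median was 0.23. Between 100 and 1000, 2 of 14 were called (2.59% of all genes), and under 100, 0 of 8 (0.279% of all genes), where the median SE was 0.37 against 0.17 in the top class so that a change of 0.49 lay within 1.96 SE.

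**Figure D4:**
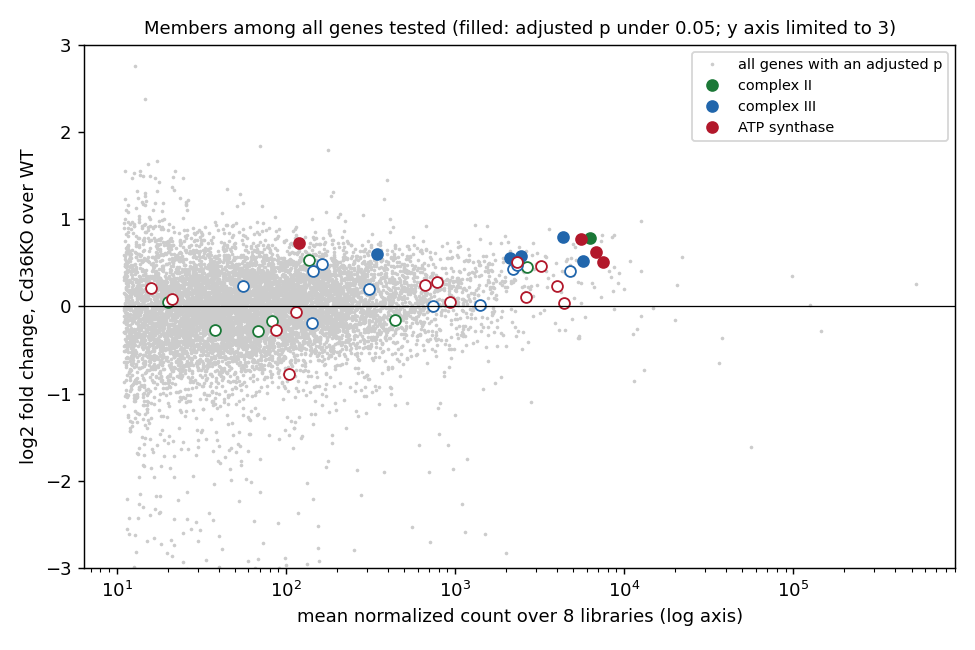
Log2 fold change (y axis, Cd36KO over WT, cut at 3 either way) against the mean normalized count over 8 libraries (x axis, log scale) for all genes with an adjusted p (grey) and the 40 members, filled where the adjusted p was under 0.05. All 18 members at 1000 or more lie above 0, and members under 100 lie between -0.28 and 0.23 with none filled.

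Transcript features that the choice of genes did not use differed between members that rose and the rest. The 10 that rose had a median longest transcript of 829.5 bases and a GC content of 51.6% in its last 500 bases, against 1774 bases and 43.8% for the other 30 members and 3230.5 bases and 43.8% for all 9432 protein-coding genes tested. Transcripts under 500 bases, such as Uqcr10 (434) and Atp5e (421), were taken whole, so that GC content is not independent of length. Across genes, the rank correlation of log2 fold change with that GC content was 0.43 over the 40 members (Pearson 0.33), 0.30 over the 347 protein-coding genes with a mean count of 1000 or more (Pearson 0.14) and 0.23 over all 9432 (Pearson 0.14). With the length of the longest transcript it was -0.21 over the members (Pearson -0.14), -0.36 over the 347 (Pearson -0.28) and -0.19 over all 9432 (Pearson -0.12). Genes are not independent replicates, all points share the same 8 libraries, and the part of GC content or length in the fold changes was not tested.

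Ratios of counts between subunits of 1 enzyme do not depend on the scaling of the libraries. The 10 pairs shown were chosen after the values were seen, several of them to set a gene that rose beside one that did not, so their ratios are descriptions and were not tested. Atp5o to Atp5b was 0.79, 0.954, 1.05 and 1.02 in WT and 2.25, 1.31, 1.39 and 1.46 in Cd36KO, a difference of 0.72 on the log2 scale with no overlap. Uqcr10 to Uqcrb was 1.92, 2.6, 2.74 and 2.01 in WT and 5.37, 3.43, 3.34 and 3.51 in Cd36KO, a difference of 0.74 and again no overlap. Within the peripheral stalk, Atp5o to Atp5j differed by 1.51, also without overlap, and the unnumbered library stood out at 197 against 66.5 to 81.1 in the other Cd36KO libraries.

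The other pairs overlapped. Sdhb to Sdha differed by 0.33 on the log2 scale and Sdhb to Sdhc by 0.98. Atp5j2 to Atp5b differed by 0.45 and Atp5a1 to Atp5b by 0.19. In complex III, Uqcrc1 to Uqcrc2 differed by 0.11, and Uqcrc1 and Cyc1 against Uqcrfs1 each by 0.44.

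**Figure D5:**
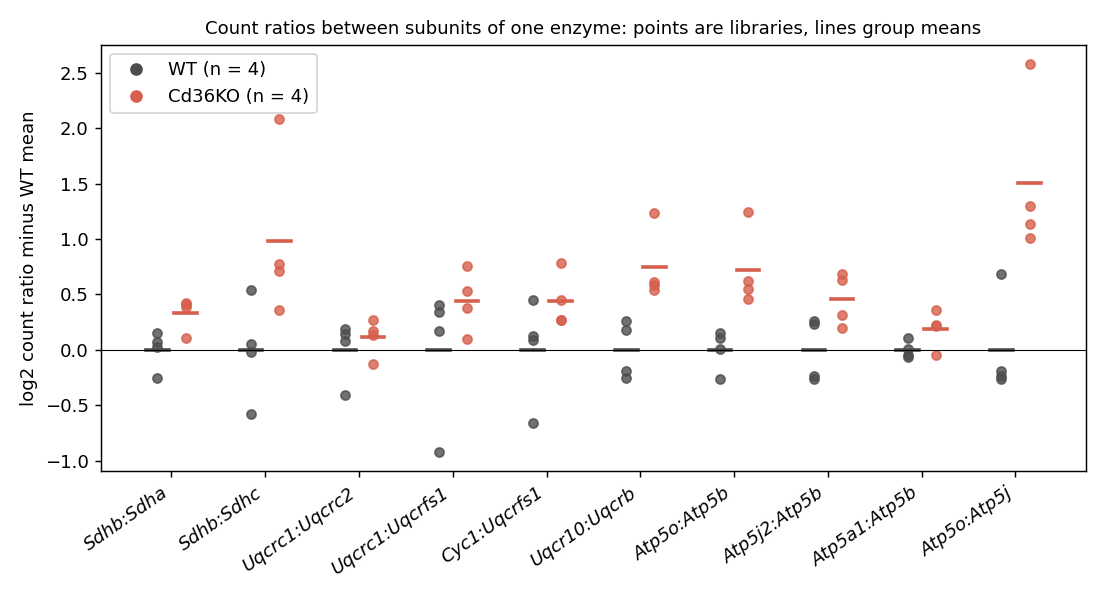
Log2 count ratio of 10 subunit pairs (x axis) per library, minus the WT mean of that pair (y axis), with lines at group means, for 4 WT and 4 Cd36KO libraries. The Cd36KO points clear the WT points for Uqcr10:Uqcrb, Atp5o:Atp5b and Atp5o:Atp5j, and the WT points are widest apart for Uqcrc1:Uqcrfs1.

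The other genes of oxidative phosphorylation, from lists written with earlier results of these data known, are read against 1.42% of all genes called higher, and 10.8% of those with a mean normalized count of 1000 or more. Of 36 nuclear subunits of complex I, 7 were higher and 0 lower (unadjusted, 23 and 0 by DESeq2, against 7.69% of all genes higher, and 18 and 0 by edgeR, against 7.23%) with a median log2 fold change of 0.40, and of 13 of complex IV, 3 were higher and 0 lower with a median of 0.41. Examples are Ndufa5 of complex I (0.82, SE 0.18, DESeq2 adjusted p = 0.00143) and Cox7a2 of complex IV (0.68, SE 0.20, DESeq2 adjusted p = 0.0332). Of 8 carriers of electrons to ubiquinone and cytochrome c, 2 were higher, Cycs, the cytochrome c that complex III reduces (0.61, SE 0.14, DESeq2 adjusted p = 0.00351), and Etfb of the electron transfer flavoprotein (0.82, SE 0.15, DESeq2 adjusted p = 8.09e-05). The list was split, with 4 of 8 above 0, a median of 0.16, a lowest value of -0.67 (Prodh, proline dehydrogenase), and 2 genes lower at an unadjusted p by DESeq2 and 3 by edgeR. In ubiquinone synthesis 1 of 13 was higher (Coq8a, 0.74) and in the cristae list 1 of 8 (2410015M20Rik, 0.55). In the citric acid cycle it was 2 of 13 (Idh3g, 0.63, and Suclg1, 0.59). Their shares (7.7%, 12.5% and 15.4%) lay on either side of the 10.8%, which covers only genes with a mean of 1000 or more. In that class 8 of the 38 genes called were members, and these lists were not sorted by count. None of the 3 adenine nucleotide and phosphate carriers passed the test, with a median of -0.07 and 0 at an unadjusted p in either tool, and none of 4 further ATP synthase factors, with a median of 0.47 and 3 higher at an unadjusted p by DESeq2 and 2 by edgeR. The 9 regulators of nuclear respiratory genes gave 0 calls (1 higher at an unadjusted p by DESeq2 and by edgeR, Ppargc1a at 0.51), and Nrf1, Gabpa, Esrra and Yy1, whose motifs or families were searched above, stood between -0.32 and -0.06.

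Partners outside the 40 genes did not all move with them. The mitochondrially encoded mt-Cytb, the cytochrome b of complex III, stood at 0.02 (SE 0.20), and mt-Atp6, the proton channel of ATP synthase, at 0.59 (DESeq2 adjusted p = 0.0634) with no overlap of groups, while c-subunit gene Atp5g1 fell by 1.49 on the log2 scale (SE 0.31, DESeq2 adjusted p = 0.000716), a call that edgeR did not make (edgeR adjusted p = 0.077). The other c-subunit genes did not pass the test, Atp5g3 at -0.51 with all Cd36KO libraries below all WT libraries (DESeq2 adjusted p = 0.233) and Atp5g2 at 0.56 with overlapping groups.

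Markers of cell types in the tissue also differed between the libraries. The summed normalized counts of 6 brown adipocyte markers were between 12406 and 16530 in WT and between 23693 and 31510 in Cd36KO. DESeq2 called Ucp1 and Cidea higher, and edgeR called 0 of the 6 higher. White fat markers (6 genes, 4 called lower by DESeq2) were between 600.3 and 4839 in WT, where replicate 1 was the low library. In Cd36KO they were between 532 and 962. Adipocyte markers (5 genes, 0 called by either tool, 2 lower at an unadjusted p in both) were between 20593 and 36170 in WT. Their Cd36KO range was 15608 to 21598. Skeletal muscle markers (12 genes, 0 called by either tool, 6 lower at an unadjusted p by DESeq2 and 11 by edgeR) ranged from 596 to 48718 in WT, highest in replicate 1, and from 43.0 to 6296 in Cd36KO. Macrophage (8 genes, 524 to 828 and 594 to 904), endothelial (5 genes, 689 to 1091 and 805 to 1134), stromal (6 genes, 1910 to 2310 and 1412 to 1694, with Dpt called lower) and red cell markers (5 genes, 4615 to 8591 and 4836 to 16259, highest in the unnumbered library) were also present, and no marker was at 0 in all libraries. In a bulk sample, more brown adipocytes and more of these transcripts per brown adipocyte cannot be told apart. With the muscle marker score as a covariate, DESeq2 called 3 of the 40 genes (Uqcrc1, Uqcr10 and Atp5o) with a median log2 fold change of 0.40, and 0.665% of all genes higher. With a white fat score, an alternative chosen after seeing the data, it called 13 of the 37 members with an adjusted p, of which 8 were among the 10, with a median of 0.55 over the 40. That fit called 7.68% of all genes higher and moved their median to 0.10. Apart from WT replicate 1 (3.64), the white fat score followed genotype, at 5.57 to 6.06 in WT and 2.84 to 3.66 in Cd36KO. The fit therefore separates score from genotype mainly through that 1 library. The part of brown adipocyte, stromal and red cell content in the fold changes was not tested.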

How the data were processed

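The study's methods state that a digital mRNA-seq service made single-end reads, which were trimmed by bbduk, aligned by STAR and counted by HTSeq-count. The submitters' processing notes name Trimmomatic and HISAT2, which the study also lists among its software, with DESeq2 and the builds GRCm38 and mm10, and which tools made this table was not settled. The annotation release, the strand setting and whether molecular identifiers were used are not given in the sources used here. Most reads of such a protocol come from the 3′ end. Levels were therefore not compared between genes, apart from sorting into classes of mean count. Ratios between genes were compared only across libraries.

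The deposited table used here holds raw whole-number counts of each gene in 8 libraries. A second table by the authors holds log2 values, found to be the log2 of size-factor normalized counts with a pseudocount of 1, which served for 1 alternative. Symbols and positions came from the GENCODE annotation of GRCm38 (30934 of 31053 identifiers matched). A second Atp5o identifier held 0 counts.

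Expression was tested across the whole table with DESeq2, the tool the study's methods name, here in version 1.42.0 (Wald test, default independent filtering and Cook filter, genotype as the only term), in R 4.3.3, with Benjamini-Hochberg adjustment and a threshold of 0.05. Alternatives were edgeR 4.0.16, limma 3.58.1, TMM factors, size factors without mitochondrial genes, a filter of 10 counts in 4 libraries, no independent filtering, each library left out, the replicate number as a block, and marker scores as covariates. The fits were tested on simulated counts, with changes larger than those of the members. Copies of transcripts were found with BLAST 2.17.0, promoter sequences came from RefSeq on GRCm38.p6, and figures were drawn with matplotlib 3.10.9.

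Values in every library are given for genes with an adjusted p under 0.05, for Sdha, Sdhb, Uqcrc1, Uqcrfs1, Cyc1, Atp5a1, Atp5b and Atpif1, and for the largest rise and fall of each enzyme among genes with a mean of at least 50 normalized counts. The members and all lists were chosen with earlier results of these data known. No 2 libraries agreed within sampling noise (the lowest chi-square per degree of freedom was 7.07).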

Additional observations from a re-analysis of the deposited data

Results flagged for a closer look

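Of 108 groups of 4 libraries (the 40 genes and the 10 subunit ratios and the shares of nuclear counts, in WT and in Cd36KO), 14 held a library whose gap to the nearest other was larger, relative to the group's range, than Dixon's critical value for 4 values. Chance flags about 1 in 20 groups, 5.4 of 108. Values are log2(normalized count + 1) unless given as a ratio.

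The unnumbered Cd36KO library accounted for 5 of them. It was high for Sdha (11.84, others 11.47 to 11.51) and low for the anchors Sdhc (7.88, others 8.87 to 8.94) and Sdhd (4.54, others 5.28 to 5.37) and for Atp5j (5.54, others 6.43 to 6.49), and its log2 ratio of Uqcr10 to Uqcrb was 2.43 (others 1.74 to 1.81). WT replicate 1 stood apart for Uqcrh (12.01, others 12.24 to 12.28), Atp5k (11.90, others 12.49 to 12.55) and Ttc19 (7.15, others 7.07 to 7.07), the first pair low and the last high. WT replicate 4 was high for Uqcrb (10.98, others 10.13 to 10.27) and Atp5o (12.38, others 11.83 to 11.90), and WT replicate 3 for the log2 ratio of Atp5o to Atp5j (5.73, others 4.78 to 4.85). In Cd36KO, replicate 2 was low for Uqcc1 (8.14, others 8.43 to 8.48) and for the log2 ratio of Sdhb to Sdha (1.14, others 1.42 to 1.45), and replicate 4 for Sdhaf4 (6.17, others 6.34 to 6.37).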

How the results depend on the processing

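The count of 10 genes higher in Cd36KO (1.42% of all genes) was 10 with TMM factors (2.01%) or with size factors without mitochondrial genes (1.43%), 7 with the filter on low counts (1.32%), 5 without independent filtering (0.42%), 3 with the muscle score (0.665%) and 13 with the white fat score (7.68%, chosen after seeing the data). It was 0 with edgeR (0.0408%) and with limma, which called 0 of all 9793 genes, with 17 members higher at an unadjusted p in either. Leaving out a library gave 0 to 17. None of the 40 genes was called lower under any of these settings. The cause of these differences was not tested. Each of the 10 genes kept its direction in all 18 alternatives and passed the threshold in between 4 (Uqcc3) and 13 (Uqcr10) of them, with 12 for Atp5o and 9 for Sdhb.

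The median log2 fold change of the 40 genes was 0.27 to 0.38 with a library left out and 0.55 with the white fat score, that of ATP synthase genes 0.15 to 0.31 and 0.47, and that of complex III genes 0.37 to 0.55 with a library left out, 0.28 in the numbered libraries 2 to 4 (0.29 with the replicate block), 0.57 with the muscle score and 0.61 with the white fat score. The complex II median was -0.18 to 0.22 with a library left out and 0.27 with the muscle score.

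Single genes that were not called changed sign as follows on the log2 scale. Uqcrfs1 was -0.0058 with edgeR and -0.0021 with the filter on low counts. With limma, Sdhd was 0.044 and Sdhaf3 -0.018. With the muscle score, Sdhd was 0.35, Sdhaf4 0.056 and Atp5s -0.43. With the white fat score, Sdhaf4 was 0.036, Atp5b -0.093, Atp5e -0.20, Atpaf1 -0.71 and Atpaf2 0.12. With a library left out, the ranges were -0.15 to 0.41 (Uqcrfs1), -0.068 to 0.25 (Uqcrb), -0.18 to 0.24 (Sdhaf3), -0.034 to 0.15 (Atp5b), -0.18 to 0.15 (Atpaf2), -0.091 to 0.34 (Atpaf1), -0.58 to 0.068 (Sdhd), -0.29 to 0.036 (Sdhc), -0.041 to 0.47 (Atp5s), -0.041 to 0.23 (Atp5c1) and -0.37 to 0.25 (Sdhaf4).

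Replicate numbers 2 to 4 are shared by both groups, but same-numbered libraries did not all deviate from their group means together (correlations of -0.13, 0.42 and 0.14). Among the numbered Cd36KO libraries, WT replicates 3 and 4 correlated best with their own number and WT replicate 2 did not. With the replicate block in these 6 libraries, 1 gene (Uqcr10) was called (0.265% of all genes), against 0 without the block in the same libraries (0.42%). With the block, Sdhc was 0.091, Sdhd 0.56, Sdhaf3 -0.23, Atp5c1 -0.00061 and Atpaf2 0.014, and without it Sdhc was 0.049, Sdhd 0.23, Sdhaf3 -0.14, Uqcrfs1 -0.067 and Atp5c1 -0.022.

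Depth limits the low genes: 8 of the 40 had a mean under 100 normalized counts, and 4 under 50.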
